A study of Mus musculus with 14 samples.

Results

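The transcripts of the mitochondrial respiratory chain and of the mitochondrial carrier family were followed in 4 derivatives of MIN6 cells, an insulin-secreting line from mouse pancreas, made to carry more or less Sirt1. Members were taken by gene symbol alone. A probe counted if its single symbol in the platform annotation, updated through the Entrez identifier, began with Nduf, Uqcr, Cox4 to Cox8, Atp5 or Slc25a, or was Sdha, Sdhb, Sdhc or Sdhd. Slc25a14 and Slc25a27, the mitochondrial uncoupling carriers with 2 probes, were left out. This gave 120 probes of 119 genes, out of 23232 probes, and all 120 were tested. Of these, 86 probes belong to the complexes and 34 to carriers. Only Atp5md had 2 probes.

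Each of 14 two-colour arrays set 1 line against a control RNA. Sir2OE1 (3 arrays) and Sir2OE2 (4 arrays) came from infection with a pBabe-Sirt1 retrovirus carrying mouse Sirt1, and their control was RNA pooled from the pBabe-neo lines Neo1 and Neo2. Sir2KD1 (3 arrays) and Sir2KD2 (4 arrays) carried 2 different siRNAs against Sirt1 in mU6pro vectors with a neomycin-resistance plasmid, and their control was the mU6pro line. All lines derived from MIN6 at passage 24, all had gone through G418 selection (280 micrograms per ml after the retrovirus, 400 after the siRNA vectors), and all were kept in 5 mM glucose for 4 days. Each is 1 stable, selected line, so neither perturbation is acute. Nothing says that the slides of a line came from different cultures, and the p-values therefore measure the spread between slides, which may be technical. Values are log2 ratios, turned so that every array runs the same way with respect to the line. Which channel is on top of the deposited ratio was not stated, so values are said to lie on the plus or the minus side. A change of the overall sign would swap plus and minus in all 4 lines.

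The respiratory chain passes electrons from NADH through complex I, and from succinate through complex II, to complex III and, by way of cytochrome c, to complex IV, which reduces oxygen. Complexes I, III and IV pump protons, and ATP synthase uses the gradient to make ATP. Carriers of the SLC25 family move nucleotides, phosphate, acids and cofactors across the inner membrane. In beta cells ATP made in mitochondria closes potassium channels and so triggers insulin release, and the malate-aspartate shuttle carries cytosolic reducing power to the chain.

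Many genes of the chain are known targets of NRF1, GABPA (NRF2) and ESRRA, so the promoters of the members were searched for the letters of these factors' motifs on both strands. RefSeq windows on GRCm38.p6, from 250 bases before to 50 bases after a start, were found for 95 of the 119 genes (107 windows). The NRF1 letters GCGCNTGCGC lay in 18 member windows (16.8%), which belong to 17 genes, against 4.60% of all 32851 windows. The GABPA letters CCGGAAGT lay in 6 member windows (5.61%, against 3.89% of all), and the ESRRA letters TCAAGGTCA in 1 (0.935%, against 0.423%). No letters of one of these motifs are contained in another. Member windows were richer in G and C, with a median of 59.7% against 52.7% of all windows. The sites that follow belong to members whose values are described later. They are 30 bases each, read along the strand of the gene, and capitals mark the match.
Ndufs3 (GABPA letters, chr2:90904703-90904732, minus strand): tgcacatttccACTTCCGGtccgtgccctt
Ndufa6 (NRF1 letters, chr15:82354249-82354278, minus strand): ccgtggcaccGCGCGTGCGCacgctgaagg
Ndufaf5 (NRF1 letters, chr2:140170652-140170681, plus strand): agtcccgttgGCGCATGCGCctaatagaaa
Sdha (NRF1 letters, chr13:74350319-74350348, minus strand): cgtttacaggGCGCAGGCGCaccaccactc
Sdhd (ESRRA letters, chr9:50603800-50603829, minus strand): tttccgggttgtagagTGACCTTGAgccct
Cox6a1 (NRF1 letters, chr5:115349101-115349130, minus strand): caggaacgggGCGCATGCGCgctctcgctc
Atp5k (NRF1 letters, chr5:108434430-108434459, minus strand): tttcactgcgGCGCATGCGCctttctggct
Atp5g2 (NRF1 letters, chr15:102671070-102671099, minus strand): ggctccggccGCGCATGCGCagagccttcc
Slc25a20 (GABPA letters, chr9:108662046-108662075, plus strand): gaggagggcagCCGGAAGTagacttcaggg
In Ndufs3 the match begins at the annotated start itself, and in Ndufa6 it begins 23 bases after it. A match of letters describes the window and is no evidence of binding.

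The arrays did not show the intended change of Sirt1 at its probe. Sirt1 lay at 0.08 ± 0.12 (SE, n = 3 arrays) in Sir2OE1, -0.33 ± 0.10 (n = 4) in Sir2OE2, -0.10 ± 0.12 (n = 3) in Sir2KD1 and 0.12 ± 0.10 (n = 4) in Sir2KD2. The limma adjusted p-values were 0.933, 0.131, 0.772 and 0.651. On single arrays Sirt1 ran from -0.10 to 0.19 in Sir2OE1, from -0.47 to -0.22 in Sir2OE2, from -0.19 to 0.04 in Sir2KD1 and from 0.09 to 0.21 in Sir2KD2. Because the probe did not separate the lines as labelled, a line's name stands for its label. The number of arrays limits the precision, and no signal intensities were used.

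Before any fold change, 27 of the 120 member probes had to be set apart. Undoing the centring of the deposited values gave whole-number percent ratios, and on each array one ratio was shared by many probes. A probe was set apart where at least 5 of the 7 arrays of a kind were within 1 percentage point of that shared ratio. In the overexpression arrays 27 members (22.5%) met this rule, against 1.42% of all probes (329). In the knockdown arrays 8 members (6.67%) met it, against 0.745% (173), and all 8 were among the 27. The remaining 93 members met it in neither kind. On at least 5 arrays of that kind these probes repeat the array's value, so no fold change is given for them in that kind. They do not do so on every array, since on Sir2OE2 slides 3 and 4 only 21 and 4 of the 27 did.

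The shared ratio was most frequent in complex IV and ATP synthase. In the overexpression arrays it held 8 of 16 complex IV probes (50%), 9 of 18 ATP synthase probes (50%) and 8 of 28 complex I accessory probes (28.6%). It held 1 of 8 complex III probes and 1 of 34 carriers. None of the 5 complex I core, 7 complex I assembly and 4 complex II probes met the rule in either kind. In the knockdown arrays it held 5 complex IV and 3 ATP synthase probes.

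The complex IV probes set apart in the overexpression arrays were Cox4i1, Cox5a, Cox5b, Cox6a1, Cox6b1, Cox6c, Cox7a2 and Cox7c. These are the subunits and isoforms made in most tissues. The ATP synthase probes were Atp5e, Atp5h, Atp5j, Atp5j2, Atp5k-ps1, Atp5l, 1 of the 2 Atp5md probes, Atp5o and Atp5pb, which are mostly stalk and membrane subunits. The complex I probes were Ndufa1, Ndufa2, Ndufa4, Ndufa13, Ndufb8, Ndufb9, Ndufc1 and Ndufc2, and of these Ndufa4 is now regarded as a subunit of complex IV. The last ones were Uqcr10 of complex III and the ADP/ATP carrier Slc25a5. In the knockdown arrays the set was Cox4i1, Cox5b, Cox6a1, Cox6c, Cox7c, Atp5e, Atp5l and the same Atp5md probe.

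Cox6a1 shows what the shared ratio looks like. Its channel ratio was 82, 95 and 100% on slides 1 to 3 of Sir2OE1 and 107, 105, 138 and 255% on slides 1 to 4 of Sir2OE2, which is the shared ratio of each array. In the knockdown arrays it was 83, 73 and 80% in Sir2KD1 and 86, 84, 76 and 85% in Sir2KD2, within 1 point of the shared ratio each time. By array the number of members at the shared ratio changed strongly. It was highest on Sir2OE1 slide 2 with 42 of 120 (35%, against 4.96% of all probes) and lowest on Sir2OE2 slide 4 with 4 (3.33%, against 0.43%). A further 12 members in the overexpression arrays (10%, against 0.702% of all) and 11 in the knockdown arrays (9.17%, against 0.723%) had it on 3 or 4 arrays and were kept. Among those with values given below were Uqcr11 and Slc25a3 in both kinds, and Atp5b, Atp5c1, Atp5d and Ndufv2 in the overexpression arrays.

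**Figure D1:**
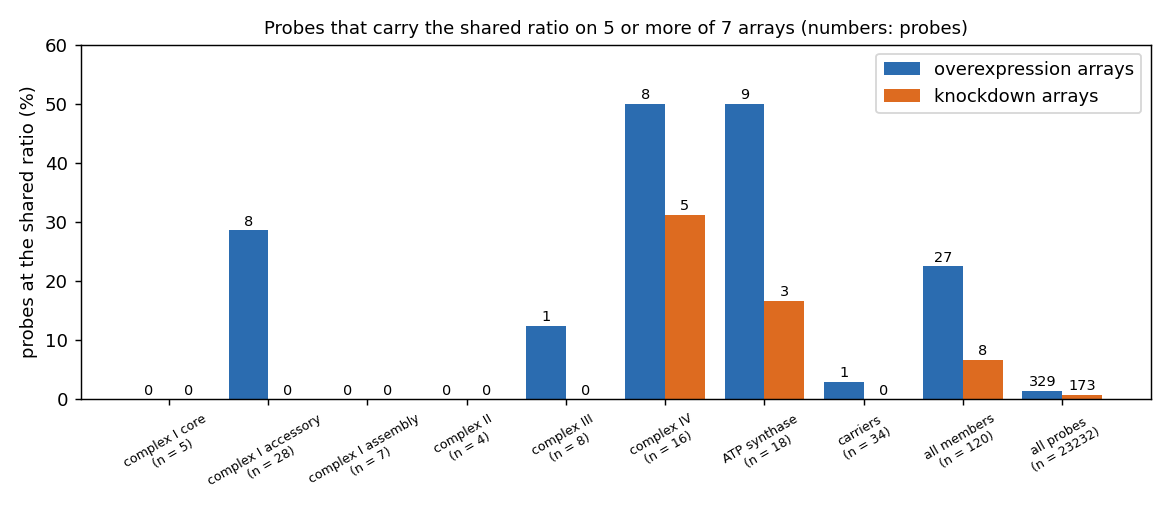
Percent of probes (vertical axis) that carried the array's shared ratio on 5 or more of 7 arrays, by role (horizontal axis), for overexpression arrays (blue) and knockdown arrays (orange), with the number of probes above each bar. Complex IV and ATP synthase reach 50% in the overexpression arrays, against 1.42% of all probes.

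**Figure D2:**
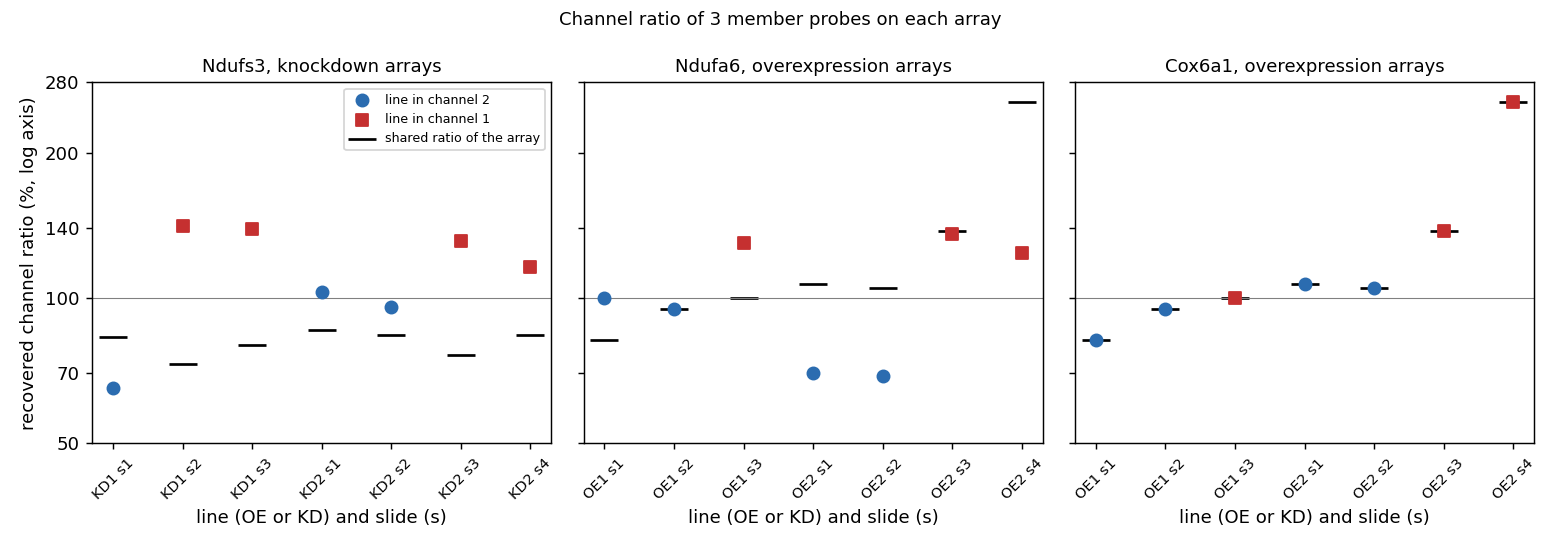
Recovered channel ratio in percent (logarithmic vertical axis, up to a factor common to the arrays of a probe and kind) on each array for Ndufs3, Ndufa6 and Cox6a1, with circles where the line was in channel 2, squares where it was in channel 1 and black dashes for the array's shared ratio. Cox6a1 lies on the dashes on all 7 arrays, and Ndufs3 in Sir2KD1 splits by channel into 65% and 139 to 141%.

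Few members were called as different from the control RNA. The 27 members at the shared ratio in the overexpression arrays and the 8 in the knockdown arrays stay in these counts. With 3 or 4 slides per line, the lack of a call does not show that a member did not differ. At a limma adjusted p below 0.05 over all probes tested, 0 members were called in Sir2OE1 (1.06% of all probes were), 1 in Sir2OE2 (2.81% of all), 1 in Sir2KD1 (3.59% of all) and 0 in Sir2KD2 (1.34% of all). The called members were Ndufa6 in Sir2OE2 and Ndufs3 in Sir2KD1, both on the minus side. No member was called in both overexpressing lines (0.551% of all probes) or in both knockdown lines (0.659% of all).

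At an unadjusted p below 0.05 the members were 13 in Sir2OE1 (10.8% of members against 9.61% of all probes), 18 in Sir2OE2 (15% against 13.2%), 12 in Sir2KD1 (10% against 16.8%) and 13 in Sir2KD2 (10.8% against 13.4%). They divided into 7 plus and 6 minus in Sir2OE1, 2 and 16 in Sir2OE2, 8 and 4 in Sir2KD1, and 9 and 4 in Sir2KD2. Of the 16 on the minus side in Sir2OE2, 7 had values of their own and the others carried the shared ratio. On one side in both lines at that level were 5 members for overexpression (3.01% of all) and 2 for knockdown (3.76% of all). Without the shared-ratio probes the shares were 14% of members against 9.75% of all probes in Sir2OE1, 9.68% against 12.8% in Sir2OE2, 10.7% against 16.9% in Sir2KD1 and 11.6% against 13.5% in Sir2KD2. The members thus lay above the background in Sir2OE1 and below it in the other 3 lines, and these differences were not tested. With each line taken as 1 replicate, limma called 0 probes for overexpression, knockdown or their difference, where 1623, 2361 and 1822 probes had an unadjusted p below 0.05. Of these, 6, 4 and 6 were members.

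The members' ratios lay closer to 0 than those of the array as a whole. Without the shared-ratio probes, the median log2 ratio of the members was 0.05 in Sir2OE1 (n = 93 probes), -0.001 in Sir2OE2 (93), -0.006 in Sir2KD1 (112) and 0.05 in Sir2KD2 (112). Over all probes it was 0.003, 0.00, 0.02 and -0.005. The median size of the log2 ratio, whatever its side, was 0.12, 0.10, 0.13 and 0.10 for members against 0.18, 0.16, 0.23 and 0.18 for all probes. The 95% interval lay wholly within a 2-fold change, between -1 and 1, for 94.6, 96.8, 91.1 and 94.6% of these members, against 73.0, 80.0, 66.0 and 77.7% of all probes. For these members a 2-fold difference lay outside the interval, while smaller ones may lie within it. These shares describe the probes and were not tested. Still among these members were some that carried the shared ratio on several arrays without meeting the rule. They were 12 in the overexpression arrays (10% of members, against 0.702% of all probes) and 11 in the knockdown arrays (9.17%, against 0.723%). Their part in the median sizes and in the shares within a 2-fold change was not tested. Without signal intensities, the members were not compared with probes of equal signal.

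**Figure D3:**
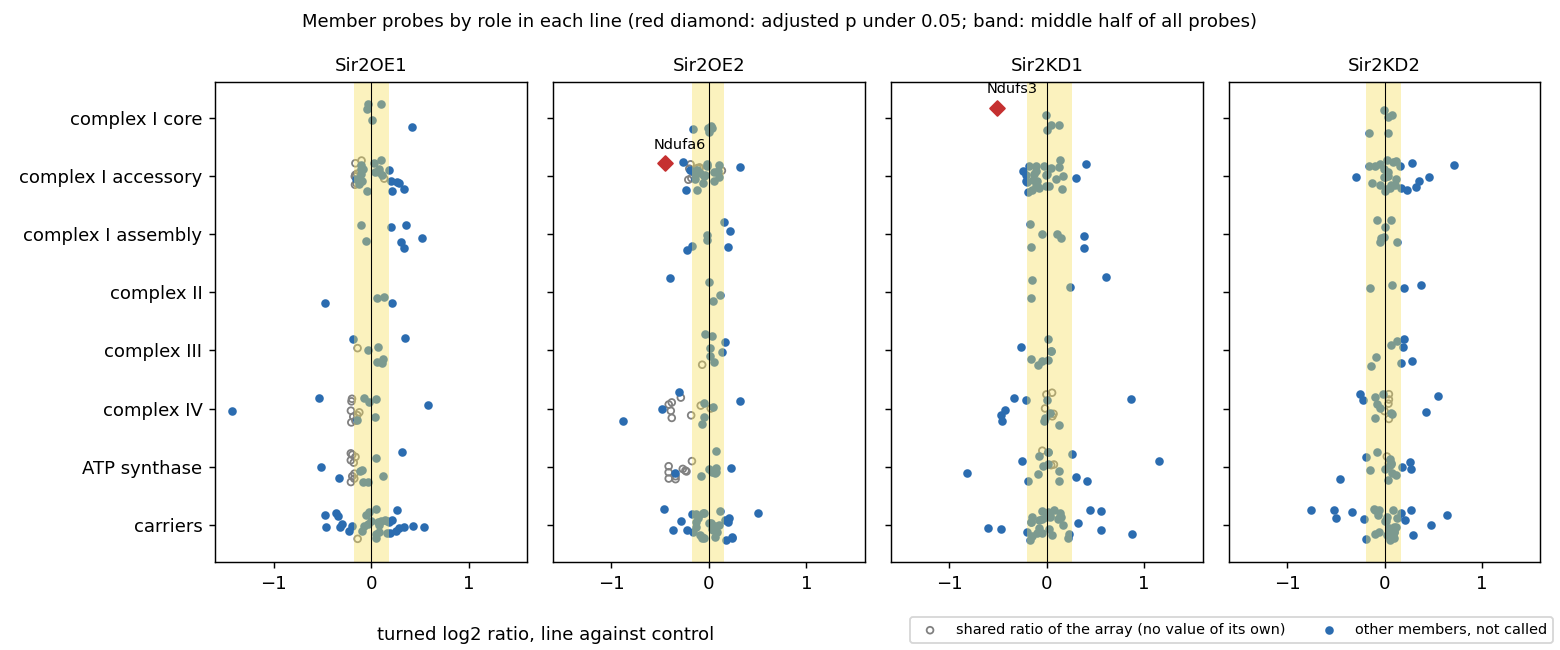
Turned log2 ratio of every member probe (horizontal axis) by role (vertical axis) in each line, with open circles for probes at the shared ratio, blue points for other members not called, red diamonds for called members and a yellow band for the interquartile range of all probes. The called members are Ndufa6 in Sir2OE2 and Ndufs3 in Sir2KD1, and most other members lie in or near the band.

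In complex I, the core subunit Ndufs3 was the only core member called. Ndufs3 is part of the arm of the enzyme that reaches into the matrix. In Sir2KD1 it lay at -0.68, -0.44 and -0.41 on slides 1 to 3, and in Sir2KD2 at -0.02, -0.12, -0.33 and -0.15 on slides 1 to 4. The Sir2KD1 arrays all lay below the Sir2KD2 arrays. The fitted ratio was -0.51 ± 0.11 (SE, n = 3; adjusted p = 0.0371), a 1.42-fold difference, in Sir2KD1 and -0.16 ± 0.10 (n = 4; adjusted p = 0.546) in Sir2KD2. In the overexpressing lines Ndufs3 was at -0.05 ± 0.12 and -0.17 ± 0.10, with adjusted p = 0.971 and 0.547.

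The Ndufs3 call is fragile. Leaving out any single Sir2KD1 slide ended it, with ratios from -0.34 to -0.56 and adjusted p from 0.0828 to 0.368, as did leaving out Sir2OE1 slide 2, Sir2OE2 slides 1, 2 or 3, or Sir2KD2 slides 2 or 4. The test of Sir2KD2 minus Sir2KD1 gave 0.36 (95% interval 0.02 to 0.69; adjusted p = 0.384), so the lines were not shown to differ. In channel terms, the recovered ratio of Ndufs3 was 65% on the Sir2KD1 array with the line in channel 2 and 141 and 139% on those with it in channel 1. In Sir2KD2 it was 103 and 96% with the line in channel 2 and 131 and 116% with it in channel 1.

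No other core member was called. Ndufs1, Ndufv1 and Ndufv2, which carry the flavin and iron-sulfur groups of the electron entry path, lay between -0.03 and 0.12 in all 4 lines, with adjusted p of at least 0.703. Ndufs7, which binds the last iron-sulfur cluster before ubiquinone, lay at 0.42 ± 0.16 in Sir2OE1 (adjusted p = 0.376) and between -0.004 and 0.07 in the other lines.

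Ndufa6, an accessory subunit of complex I, was the only member called in an overexpressing line. It lay at -0.54, -0.56, -0.42 and -0.29 on slides 1 to 4 of Sir2OE2 and at -0.02, -0.10 and -0.36 on slides 1 to 3 of Sir2OE1. The lines overlapped, since Sir2OE1 slide 3 was lower than Sir2OE2 slide 4. The fitted ratio was -0.45 ± 0.10 (SE, n = 4; adjusted p = 0.0461), a 1.37-fold difference, in Sir2OE2 and -0.16 ± 0.12 (n = 3; adjusted p = 0.815) in Sir2OE1. In the knockdown lines it was -0.24 ± 0.12 (adjusted p = 0.359) and -0.04 ± 0.10 (adjusted p = 0.914).

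The Ndufa6 call was lost when any single slide of any line was left out, except Sir2OE1 slide 3, where adjusted p was 0.0302. Without a Sir2OE2 slide the ratio ran from -0.41 to -0.52 and adjusted p from 0.0782 to 0.246. The difference Sir2OE2 minus Sir2OE1 was -0.29 (95% interval -0.65 to 0.06; adjusted p = 0.789). The recovered channel ratio of Ndufa6 was 70 and 69% on the Sir2OE2 arrays with the line in channel 2 and 136 and 124% on those with it in channel 1. In Sir2OE1 it was 100 and 95% against 130%.

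Of the remaining accessory subunits of complex I with values of their own, none was called in any line. Their medians, with Ndufa6 included, were 0.06 in Sir2OE1 and -0.06 in Sir2OE2 (20 probes each), and -0.08 in Sir2KD1 and 0.05 in Sir2KD2 (28 probes each). Ndufs4, needed for a stable complex, lay at 0.29, 0.32, -0.21 and 0.45 in Sir2OE1, Sir2OE2, Sir2KD1 and Sir2KD2, with adjusted p of at least 0.217. In Sir2KD2 the highest accessory value was Ndufa4 at 0.71 ± 0.20 (adjusted p = 0.148), and in Sir2OE1 it was Ndufb7 at 0.34 ± 0.12 (adjusted p = 0.351).

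The 7 assembly factors of complex I gave no call. Their median of 0.31 in Sir2OE1 stood above the other lines, where it was -0.02 in Sir2OE2, 0.11 in Sir2KD1 and -0.002 in Sir2KD2. Ndufaf3, which helps to join early parts of the complex, lay at 0.55, 0.59 and 0.42 on the Sir2OE1 slides and at 0.33, 0.59 and 0.22 on the Sir2KD1 slides. In Sir2OE2 it lay at 0.13, 0.16, 0.14 and 0.36, and in Sir2KD2 at 0.10, -0.05, 0.15 and -0.21. All slides of 3 lines were thus on the plus side, while Sir2KD2 straddled 0. The fitted ratios were 0.52 ± 0.13 (adjusted p = 0.107), 0.20 ± 0.11 (0.509), 0.38 ± 0.13 (0.150) and -0.002 ± 0.11 (0.997). Ndufaf5, an assembly factor that modifies Ndufs7, was at 0.21, -0.23, -0.17 and -0.05, with adjusted p of at least 0.492.

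Complex II, the succinate dehydrogenase that is also an enzyme of the citric acid cycle, gave no call. Sdha, which binds flavin and oxidises succinate, lay at -0.52, -0.82 and -0.06 in Sir2OE1 and -0.28, -0.11, -0.63 and -0.58 in Sir2OE2. In Sir2KD1 it was at 0.42, 1.72 and -0.32, and in Sir2KD2 at 0.16, 0.44, 0.01 and 0.20. All overexpression arrays were on the minus side and 6 of the 7 knockdown arrays on the plus side. The fitted ratios were -0.47 ± 0.32, -0.40 ± 0.27, 0.61 ± 0.32 and 0.20 ± 0.27, and overexpression minus knockdown was -0.84 (95% interval -1.49 to -0.19; adjusted p = 0.202), which did not pass. Sir2KD1 slide 2 alone reached 1.72.

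The other succinate dehydrogenase subunits varied less. The iron-sulfur subunit Sdhb lay between -0.16 and 0.14 in the 4 lines, with adjusted p of at least 0.618, and the membrane anchor Sdhc between -0.15 and 0.24, with adjusted p of at least 0.512. The other anchor, Sdhd, lay at 0.37, 0.43, 0.29 and 0.40 on the Sir2KD2 slides, with a fitted ratio of 0.37 ± 0.12 (n = 4; adjusted p = 0.187). In Sir2KD1 it was at -0.15 ± 0.14 (adjusted p = 0.673).

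Complex III gave no call. Its median was 0.07, 0.03, -0.02 and 0.15 in Sir2OE1, Sir2OE2, Sir2KD1 and Sir2KD2 (7 probes in the first pair of lines, 8 in the second). The Rieske iron-sulfur protein Uqcrfs1 lay between 0.05 and 0.07 in all 4 lines. The core protein Uqcrc1 was highest in Sir2OE1, at 0.35 ± 0.13 (adjusted p = 0.357), and between -0.09 and 0.05 elsewhere. Uqcr11, the complex III member with the largest mean over the lines, was at 0.13, 0.13, 0.01 and 0.20, with adjusted p of at least 0.626. Uqcr11 was at the shared ratio on 4 overexpression and 4 knockdown arrays, so these values are only partly its own.

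Complex IV has pairs of subunit isoforms made in different tissues, and the deposited ratios were informative mainly for the tissue-restricted ones. Cox7a1, Cox6a2 and Cox8b are the heart and muscle isoforms, and Cox4i2 is an isoform known from lung and low oxygen. Cox7a1 lay at -0.67, -0.34 and -0.61 in Sir2OE1 and at -0.27, -0.76, -0.22 and -0.68 in Sir2OE2. In Sir2KD1 it was at -0.61, -0.16 and -0.52, and in Sir2KD2 at 0.08, -0.34, -0.41 and -0.20. Thus 13 of 14 arrays were on the minus side, whichever way Sirt1 was meant to move. The fitted ratios were -0.54 ± 0.17, -0.48 ± 0.14, -0.43 ± 0.17 and -0.22 ± 0.14, with adjusted p = 0.244, 0.125, 0.222 and 0.558, so none was called.

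Cox7b2, an isoform of subunit VIIb known mainly from testis, held the largest log2 ratio of any member in the overexpressing lines. It lay at -1.06, -1.47 and -1.74 in Sir2OE1 and at -1.0, -1.06, -0.41 and -1.02 in Sir2OE2, all on the minus side. In Sir2KD1 it scattered over 0.11, -0.84 and 1.13, and in Sir2KD2 over 0.50, -0.98, -0.07 and -0.46. The fitted ratios were -1.42 ± 0.36 (n = 3; adjusted p = 0.125) and -0.88 ± 0.30 (n = 4; adjusted p = 0.220) in the overexpressing lines. They were 0.13 ± 0.36 and -0.25 ± 0.30 in the knockdown lines, with adjusted p = 0.916 and 0.788. Overexpression minus knockdown was -1.09 (95% interval -1.83 to -0.35; adjusted p = 0.143).

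The other complex IV isoforms gave no call either. Cox6a2 was at 0.59 ± 0.16 in Sir2OE1 (adjusted p = 0.151) and 0.42 ± 0.13 in Sir2KD2 (adjusted p = 0.180), but at -0.05 and -0.02 in Sir2OE2 and Sir2KD1. Cox8b was on the minus side in all 4 lines, from -0.10 to -0.46, with a lowest adjusted p of 0.139 in Sir2KD1. Cox4i2 reached 0.66, 0.94 and 0.99 on the Sir2KD1 slides (0.86 ± 0.29; adjusted p = 0.145) and straddled 0 in the other lines. The VIIa-related Cox7a2l and the testis isoform Cox8c lay between -0.33 and 0.04, with adjusted p of at least 0.498. Cox8a, the partner of Cox8b made in most tissues, had values of its own in every line. In the overexpressing lines Cox8a was at 0.05 ± 0.31 and -0.07 ± 0.27 against -0.14 ± 0.15 and -0.31 ± 0.13 for Cox8b, and neither was called. In the knockdown arrays Cox8a was at -0.64, -1.01 and 0.24 in Sir2KD1 and 0.22, 1.05, 1.12 and -0.18 in Sir2KD2, with SE of 0.31 and 0.27. Cox4i1, Cox6a1 and Cox7a2, the partners of these isoforms, carried the shared ratio in the overexpression arrays, so those 3 isoform pairs could not be compared there. In the knockdown lines Cox7a2 was at -0.002 and 0.07, with adjusted p of at least 0.898.

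In ATP synthase no probe was called. The alpha, beta, gamma and delta subunits Atp5a1, Atp5b, Atp5c1 and Atp5d lay between -0.25 and 0.18 over the 4 lines, with adjusted p of at least 0.395. Of these, Atp5b and Atp5d were at the shared ratio on 4 overexpression arrays and Atp5c1 on 3. Atp5k, the subunit e that helps the enzyme form dimers, held the largest log2 ratio of any member in Sir2KD1. It lay at 0.21, 1.75 and 1.48 in Sir2KD1 and at 0.11, 0.97, 0.18 and -0.96 in Sir2KD2. In the overexpressing lines it ran from -0.23 to 0.34. The fitted ratio was 1.15 ± 0.36 (n = 3; adjusted p = 0.118) in Sir2KD1 and 0.07 ± 0.30 (n = 4; adjusted p = 0.951) in Sir2KD2. Without Sir2KD1 slide 1 it was 2.08 and called (adjusted p = 0.0206), so that slide decides the call. That slide is the only array of Sir2KD1 with the line in channel 2. The 2 slides left both held the line in channel 1, so the ratio of 2.08 depends on the dye term fitted from Sir2KD2. Atp5k-ps1, annotated as a pseudogene of it, carried the shared ratio in the overexpression arrays, and a probe may not tell such copies apart.

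Atp5g2, chosen after its values were seen, was on the plus side on all 14 arrays, with 0.31 ± 0.11, 0.22 ± 0.09, 0.26 ± 0.11 and 0.26 ± 0.09 in the 4 lines and adjusted p from 0.241 to 0.320. It is one of the genes for the c subunit of the rotor. Its sister gene Atp5g1 went to different sides, at 0.12, -0.35, 0.41 and -0.45, with adjusted p of at least 0.275. On one side on all 14 arrays were 4 members (1.05% of all probes), namely Atp5g2 on the plus side and Slc25a25, Ndufa6 and Ndufs3 on the minus side. Over the 7 overexpression arrays alone 12 members kept to one side (8.70% of all probes), and over the 7 knockdown arrays 13 did (9.48% of all). The 2 Atp5md probes could not be compared, since 1 carried the shared ratio. The other was at -0.52, 0.08, -0.82 and 0.01, with SE from 0.36 to 0.42.

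**Figure D4:**
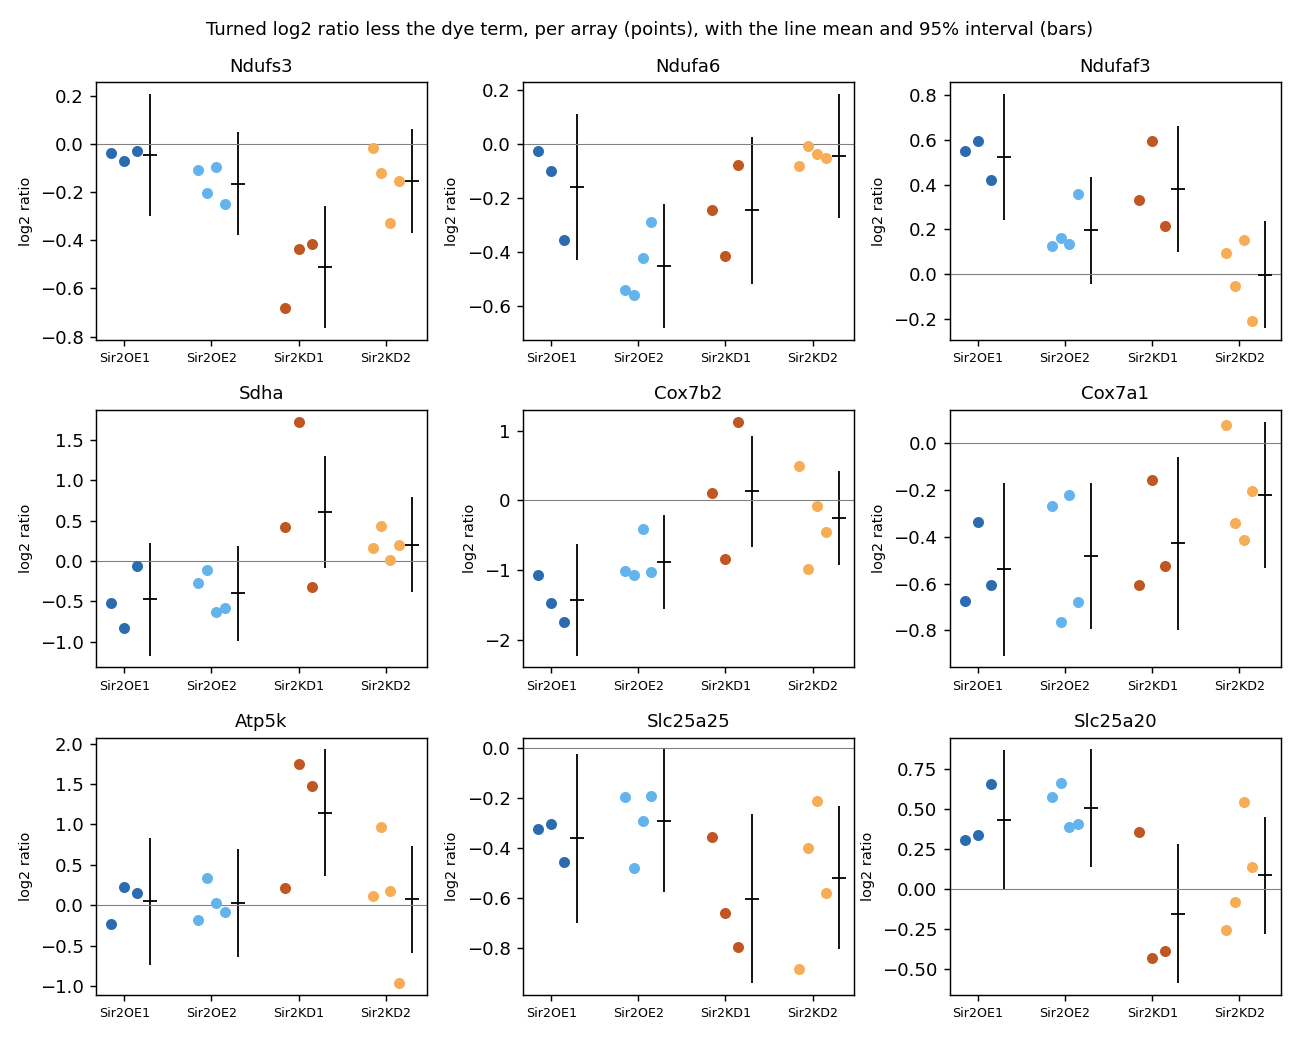
Turned log2 ratio less the dye term (vertical axis) on each array (points) for 9 members, by line (horizontal axis), with the fitted line mean and its 95% interval as black bars. Slc25a25 lies below 0 on all 14 arrays, and Cox7b2 lies below 0 on all 7 overexpression arrays while it straddles 0 in the knockdown lines.

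Among the 34 carriers no probe was called in any line, and Slc25a25 came nearest. Slc25a25 exchanges ATP-Mg for phosphate under control of cytosolic calcium. It lay at -0.32, -0.30 and -0.46 in Sir2OE1, at -0.19, -0.48, -0.29 and -0.19 in Sir2OE2, at -0.35, -0.66 and -0.79 in Sir2KD1 and at -0.88, -0.40, -0.21 and -0.58 in Sir2KD2. Every array was on the minus side, and the ranges of the 4 lines overlapped. The fitted ratios were -0.36 ± 0.15 (adjusted p = 0.476), -0.29 ± 0.13 (0.372), -0.60 ± 0.15 (0.0605) and -0.52 ± 0.13 (0.0938). Of its calcium-regulated relatives, Slc25a23 was at -0.47 ± 0.15 in Sir2OE1 (adjusted p = 0.275) and Slc25a24 lay between -0.10 and 0.21.

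The carriers that feed fatty acids and export citrate leaned to opposite sides in the overexpressing lines, without passing the test. Slc25a20, which brings acylcarnitines into the matrix for oxidation, lay at 0.31, 0.34 and 0.65 in Sir2OE1 and at 0.57, 0.66, 0.38 and 0.41 in Sir2OE2. In the knockdown lines it straddled 0, from -0.43 to 0.54. Its fitted ratios were 0.43 ± 0.20 (adjusted p = 0.520), 0.51 ± 0.17 (0.182), -0.15 ± 0.20 (0.780) and 0.09 ± 0.17 (0.883). Slc25a1, which exports citrate, was at -0.34 ± 0.13 (adjusted p = 0.397) and -0.37 ± 0.11 (0.138) in the overexpressing lines, with all 7 arrays on the minus side, and at -0.16 ± 0.13 and 0.05 ± 0.11 in the knockdown lines.

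The malate-aspartate shuttle carriers gave no call either. Slc25a11 (oxoglutarate-malate) lay between 0.02 and 0.16, Slc25a12 (aspartate-glutamate) between -0.15 and 0.27 and Slc25a13, its close relative, between -0.23 and 0.12, with adjusted p of at least 0.607. Slc25a22, a glutamate carrier, was at -0.46 ± 0.14 in Sir2OE1 (adjusted p = 0.218) and between -0.08 and 0.12 elsewhere. The dicarboxylate carrier Slc25a10 was too noisy to read, with 2.24, -0.66 and 0.06 in Sir2OE1 and 0.60, -2.18, -0.15 and -1.29 in Sir2KD2.

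The carriers that supply ATP synthase gave no call. Slc25a3, which imports phosphate, lay between -0.05 and 0.18, and Slc25a4, an ADP/ATP carrier, between -0.05 and 0.22, with adjusted p of at least 0.629. Slc25a3 was at the shared ratio on 3 overexpression and 4 knockdown arrays. Slc25a5, the other main ADP/ATP carrier, carried the shared ratio in the overexpression arrays and was at 0.02 ± 0.15 and 0.10 ± 0.13 in the knockdown lines. The SE of Slc25a5 also draw on the overexpression arrays. Slc25a42, which carries coenzyme A, was at 0.87 ± 0.30 in Sir2KD1 (adjusted p = 0.169) and called there without slide 1 (1.74; adjusted p = 0.0118). As for Atp5k, the 2 slides left both held the line in channel 1, so the ratio of 1.74 depends on the dye term fitted from Sir2KD2. Slc25a42 was chosen after its values were seen.

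The lines of a kind were not shown to differ in any member. For Sir2OE2 minus Sir2OE1, limma called 0 members (0.323% of all probes were called), and 5 had an unadjusted p below 0.05 (7.48% of all). For Sir2KD2 minus Sir2KD1, 0 members were called (0.689% of all) and 15 had an unadjusted p below 0.05 (11.8% of all). For overexpression minus knockdown, 0 members were called (2.66% of all) and 8 had an unadjusted p below 0.05 (14.4% of all). These were Cox7b2, Sdha, Ndufa3, Slc25a1, Slc25a20, Slc25a22, Slc25a26 and Atp5o, of which Atp5o carried the shared ratio in the overexpression arrays. This last contrast takes the same channel to be on top in both kinds.

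Outside the members, the carrier of electrons between complexes III and IV gave the strongest ratios of the pathway. Both probes of Cyct, the testis form of cytochrome c, were called in Sir2OE1 and Sir2OE2, at -1.94 ± 0.14 and -2.04 ± 0.22 in Sir2OE1 and at -1.30 ± 0.12 and -1.45 ± 0.19 in Sir2OE2 (adjusted p from 0.000157 to 0.00229). In Sir2KD1 its probes lay on opposite sides and were not called, at -0.14 ± 0.14 (adjusted p = 0.707) and 0.24 ± 0.22 (adjusted p = 0.671). In Sir2KD2 both were on the plus side, at 0.96 ± 0.12 (adjusted p = 0.00246) and 0.71 ± 0.19 (adjusted p = 0.115). Cycs, the form made in most tissues, lay between -0.04 and 0.23 and was not called.

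The calls in the lists around the chain are to be set beside the share of all probes called. That share was 1.06% in Sir2OE1, 2.81% in Sir2OE2, 3.59% in Sir2KD1 and 1.34% in Sir2KD2. For Sir2KD1, 2 of 20 citric acid cycle probes were called, and 1 of 30 assembly probes on each side. Of 30 measured assembly factors outside the member symbols (37 listed), Coa3, a complex IV assembly factor, was on the minus side in Sir2OE2 (-0.51; adjusted p = 0.0153) and Sir2KD1 (-0.52; adjusted p = 0.0296). Sdhaf3, an assembly factor of complex II, was on the plus side in Sir2KD1 (0.90; adjusted p = 0.00982). Uqcc2, also on the assembly list, carried the shared ratio in the overexpression arrays. Of 19 measured citric acid cycle genes (21 listed), Suclg2 (0.91; adjusted p = 0.00285) and Fh1 (0.60; adjusted p = 0.0246) were on the plus side in Sir2KD1. They encode a succinyl-CoA ligase subunit and fumarase.

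Of 8 genes of the shuttles and of related cytosolic and mitochondrial enzymes (Mdh1, Got1, Got2, Gpd1, Gpd2, Acly, Me1 and Glud1), Gpd1, the cytosolic glycerol-3-phosphate dehydrogenase, was on the minus side in Sir2OE2 (-0.57; adjusted p = 0.0105). Acly carried the shared ratio in both kinds, and Mdh1 in the overexpression arrays. No call was made among 13 measured regulators of mitochondrial biogenesis (17 listed) or 14 measured genes of the outer membrane and import (16 listed). Ppargc1a, the coactivator of the biogenesis program that SIRT1 is known to deacetylate, was at -0.38, -0.56, 0.04 and 0.16, with adjusted p of at least 0.301. Nrf1, Gabpa, Esrra and Tfam were not called in any line.

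Ratios give no levels, so the labelled cell type could not be checked against its markers. Of 6 measured beta-cell markers (8 listed), the glucose transporter Slc2a2 was on the minus side in all 4 lines (-0.90, -1.50, -2.08 and -0.89; adjusted p from 5.19e-05 to 0.0254) and Pdx1 in Sir2KD1 (-0.77; adjusted p = 0.00796). Nkx6-1 was on the plus side in all 4 lines (0.095, 0.42, 0.37 and 0.25) and was not called, with adjusted p of at least 0.0686. Iapp and Chga carried the shared ratio in both kinds, and Ins2 in the overexpression arrays. Of 5 measured exocrine and duct markers (7 listed), Krt19 was called in Sir2OE1 and Sir2OE2 (-0.58 and -0.69) and Krt7 in Sir2KD1 and Sir2KD2 (0.93 and 1.29). No call was made among 3 other islet, 4 mesenchymal or 3 immune markers. Of these, Gcg carried the shared ratio in the overexpression arrays. The part of these differences in the members' ratios was not tested.

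All calls rest on reading the deposited values as a ratio of fixed channels, and not as line over control. The sides given take channel 2 to be on top. Over all complete probes, deposited values of the same line taken in opposite channels had a mean r of -0.31 (overexpression) and -0.26 (knockdown). Between different lines in opposite channels it was -0.25 and -0.22. In equal channels it was 0.16 and 0.09 for the same line and -0.02 and -0.07 for different lines. Single pairs in opposite channels overlapped. In overexpression they ran from -0.41 to -0.10 for the same line and from -0.39 to -0.12 for different lines. In knockdown they ran from -0.32 to -0.15 and from -0.33 to -0.03. These pairs therefore do not settle which reading holds. The centring of each probe over 6 of 7 arrays pushes these correlations down, so 0 is not their value without a difference. If the values were line over control already, 18 members would be called in Sir2OE1 (12.5% of all probes), 2 in Sir2OE2 (2.89%), 2 in Sir2KD1 (1.43%), 5 in Sir2KD2 (6.04%) and 24 for overexpression minus knockdown (17.8%). Of these 24, 6 carried the shared ratio and 18 did not. Neither Ndufs3 (0.01 in Sir2KD1) nor Ndufa6 (-0.07 in Sir2OE2) would then be called. Ndufb10 would be called in 3 lines, at 0.39 in Sir2OE1, -0.97 in Sir2KD1 and -0.93 in Sir2KD2. That reading undoes the centring through the smallest whole-number percents, which leaves a factor of each probe unknown. The recovered percents of Ndufb10 ran from 46 to 56 in the knockdown arrays. Its values in Sir2KD1 and Sir2KD2 under that reading cannot be told apart from such a factor.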

How the data were processed

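The authors deposited log2 ratios of 14 two-colour arrays, per the file headers and values. Array software, background correction and normalization: not given in the sources used here. Within each kind the values of a probe sum to 0 over 6 of 7 arrays, so they were centred per probe, and undoing this gave whole-number percents for 100% of complete probes (relative tolerance 1e-05). The sign was turned on arrays whose channel 1 held the line. The 23230 probes measured on 2 or more arrays per line were fitted in limma 3.58.1 (R 4.3.3, lmFit and eBayes) with a coefficient for each line and a dye term for each kind, two-sided, with Benjamini-Hochberg adjustment at 0.05. The spread of a probe was pooled over all 14 arrays. Testing a ratio against 0 takes no account of spread among controls. Values on single arrays are turned ratios less the dye term, and their mean is the fitted ratio. The fit was run on simulated data with independent normal noise and known changes. The simulation held no shared ratios and no centring, so it does not cover these features.

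Members and gene lists were chosen with earlier results of these data known. Members named with values were those called, a fixed set (main carriers, complex IV isoforms, complex II), the member with the largest mean in each role, and all shared-ratio probes. Others are examples chosen after their values were seen. Of all probes, 16885 had 1 symbol, 143 several and 6204 none in the platform annotation. Probes may cross-hybridise with copies of a gene. Slide numbers did not pair the slides. Alternatives were the other reading of the ratio, dye terms, scaling, filters, the variance prior, a replicate block, the line as replicate and each slide left out.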

Additional observations from a re-analysis of the deposited data

Results flagged for a closer look

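In the lines with 4 slides, 1 slide stood apart from the other 3 in 4 of 52 member and line groups tested with Dixon's criterion (critical value 0.829). Chance gives about 1 in 20. For Sdhb, Sir2KD2 slide 3 was at 0.35 while the others lay between -0.03 and 0.00. For Cox7b2, Sir2OE2 slide 3 was at -0.41 while the others lay between -1.06 and -1.0. For Cox8b, Sir2OE2 slide 2 was at -0.62 while the others lay between -0.24 and -0.17. For Ndufaf3, Sir2OE2 slide 4 was at 0.36 while the others lay between 0.13 and 0.16. None of these members was called in that line.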

How the results depend on the processing

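The count of called members is given against 0 in Sir2OE1, 1 in Sir2OE2, 1 in Sir2KD1, 0 in Sir2KD2 and 0 in every other comparison. With values taken as line over control already, it was 18, 2, 2 and 5 in these lines, 1 in both overexpressing lines, 1 in both knockdown lines and 24 for overexpression minus knockdown (6 of the 24 at the shared ratio), and Ndufs3 in Sir2KD1 turned to 0.012. With no dye term it was 3, 3, 5 and 1, and 1 in both knockdown lines (Slc25a25). With a single dye term it was 1 in Sir2OE1 (Ndufaf3), 2 in Sir2KD1, 1 in Sir2KD2 and 1 in both knockdown lines (Slc25a25). Only a dye term for each kind takes up the centring of a probe. In these 2 settings that centring enters the ratios of Sir2OE1 and Sir2KD1, whose channels do not hold equal numbers of arrays. Quantile normalization gave 1 in Sir2OE1 (Ndufaf3) and 0 in Sir2KD1, and scaling gave 0 in Sir2KD1. With arrays of one kind only it was 1 in Sir2OE1 (Cox7b2), 0 in Sir2OE2 and 0 in Sir2KD1, and with a robust variance prior 0 in Sir2OE2. The slide number as a replicate block gave 0 in every comparison (Ndufs3 -0.57, adjusted p = 0.222; Ndufa6 -0.45, adjusted p = 0.141). Slide numbers did not pair the slides, since residual correlations of equal numbers ran from -0.39 to 0.24 and 1 of 14 arrays correlated best with its own number. Leaving out 1 slide gave 0 to 1 in Sir2OE2, 0 to 2 in Sir2KD1 (2 without its slide 1, Atp5k and Slc25a42), 0 to 1 for Sir2KD2 minus Sir2KD1 (Slc25a42, without Sir2KD1 slide 1) and 0 to 1 for overexpression minus knockdown (Atp5o without Sir2OE1 slide 3, Slc25a20 without Sir2KD1 slide 1, Cox7b2 without Sir2KD1 slide 2). Without Sir2KD1 slide 1 or Sir2OE1 slide 3, that line is left in 1 channel only. Its ratio then depends on the dye term fitted from the other line of its kind. The filters on incomplete or shared-ratio probes and the line as replicate did not move a count of called members beyond those given. Signal over background is unknown, and with 3 or 4 slides of a single line the number of arrays limits the precision.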
